A study of Saccharomyces cerevisiae with 6 samples.

Results

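At 361 of 4508 yeast genes, the upstream edge of the H3K4me3 peak lay at least 10 bp further from the gene in *jhd2∆* cells than in WT cells. The 4508 genes are those with a systematic ORF name and exactly 1 peak in each of the deposited peak lists. The strand letter in the name says which edge is upstream, that is, on the side of the promoter. The genes were thus chosen by the difference in edge position between these libraries. Genes whose downstream edge reached over 150 bp further into the gene in *jhd2∆* were left out, which removed 56 of 417. The 361 genes are therefore 8.01% of all 4508 by the whole rule, and 9.25% of all genes met the upstream limit alone. They rest on 329 distinct peaks in the *jhd2∆* list and 329 in the WT list, because some peaks were assigned to more than 1 gene. The study mapped H3K4me3 by ChIP-seq in *jhd2∆* cells (MSY724) and WT cells (MSY723), both labelled strain BY4742 and mating type a. The paper's strain list calls both strains prototrophic. In the text at hand that list reads MATα for both, which differs from the label. Its mating-type symbols are uneven for other strains there, so mating type is given as labelled. Both cultures were grown in YAR, a medium with raffinose as carbon source and ammonium sulfate as nitrogen source, to the same optical density and fixed with formaldehyde. Each genotype had 1 H3K4me3 library and no replicate, so no test was possible and every difference compares these libraries. The deleted gene *JHD2* carried no peak in the *jhd2∆* list, whereas the WT list placed a 503 bp peak on it.

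Trimethylation of histone H3 at lysine 4 is written in yeast by Set1 within the COMPASS complex and marks the 5′ ends of transcribed genes. Jhd2 is a JmjC-domain demethylase that removes methyl groups from the same lysine. A peak of the mark usually begins near the start of the gene and extends into the 5′ part of the coding region, and in the compact yeast genome the region upstream is often the promoter of a neighbour as well.

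The upstream shift chose these genes, so its size is a description only. Among the 361 genes it had a median of 23 bp, quartiles of 15 and 41 bp and a maximum of 273 bp, against a median of -13 bp over all 4508 genes, where a negative value is a retreat towards the gene. The shift was at least 20 bp at 213 of the 361 genes, at least 50 bp at 65, at least 100 bp at 27 and at least 200 bp at 4. Just inside the limit 13 genes had a shift of 10 bp, among them *NRG1*, *VTC4*, *COQ9*, *TSA1* and *ATH1*. Just outside it, 34 genes had a shift of 9 bp.

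The downstream edge of the 361 genes stood close to that of genes in general. It had a median shift of 25 bp (quartiles -3 and 67 bp), positive into the gene, against a median of 29 bp over all genes. It lay at least 10 bp further into the gene at 231 of the 361 genes (64%), where 68.3% of all genes did so. At 65 genes (18%) it lay at least 10 bp nearer to the upstream edge, where 14.4% of all genes did so. The rule capped this shift at 150 bp, which bounds its upper end. Both edges lay outward by at least 10 bp at the same 231 genes, where 6.37% of all genes met both limits. Every member met the upstream limit by the rule, so this contrast was fixed by the choice of genes. The upstream shift exceeded the downstream shift at 186 of the 361 genes (51.5%) and at 14.4% of all genes, which follows from the rule. Across the 361 genes the shifts of the edges had a Spearman correlation of -0.17, and across all 4508 genes 0.0371. Genes that share a peak enter these correlations more than once.

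With both edges together, 336 of the 361 genes had a wider peak in *jhd2∆*, where 63.4% of all genes had a wider peak. The excess over 100 bp was reached at 98 of the 361 genes (27.1%), where 14.2% of all genes reached it. A narrower peak was found at 24 of them, where 35.8% of all genes had one. Breadth contains the upstream shift, so these counts are not independent of the rule. The median breadth of the 361 genes was 666 bp in *jhd2∆* and 603 bp in WT, and over all genes 679 bp in *jhd2∆* and 658 bp in WT.

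**Figure D1:**
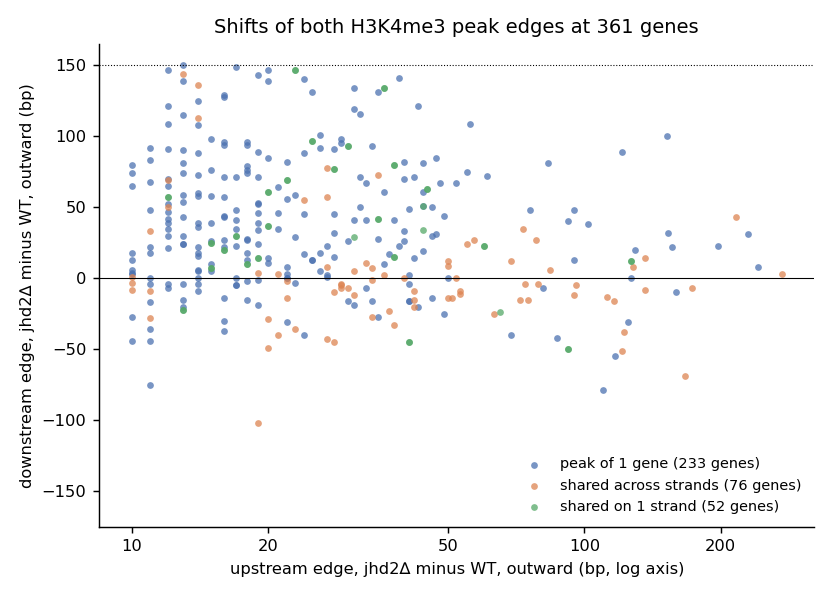
Shift of the upstream edge (horizontal, bp, log axis) against shift of the downstream edge (vertical, bp) for the 361 genes, *jhd2∆* minus WT, with outward positive and colours for how the peak was assigned. Genes with a peak of their own lie mostly above 0 on the vertical axis, with a median downstream shift of 35 bp, whereas genes sharing a peak across strands centre on -4.5 bp; the dotted line marks the limit of 150 bp.

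The 361 genes fell into 3 groups by how their peak was assigned. A peak of their own was held by 233 genes. Another 76 shared their peak with a gene on the opposite strand, and 52 shared it with a gene on the same strand. Shared peaks thus made up 128 of the 361 genes (35.5%), against 324 of all 4508 genes (7.19%). Of the genes with a peak of their own, 5.57% met the rule, against 32.1% of the 237 genes that share a peak across strands and 60.5% of the 86 that share one on the same strand. The median upstream shift over all genes of each kind was -14, 0 and 16.5 bp in that order.

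Among genes with a peak of their own, the largest upstream shift was at *AFB1* (YLR040C), named as an a-factor barrier protein. Its peak on chromosome XII ran from 228969 to 229713 in *jhd2∆* and from 228977 to 229471 in WT, as the lists give positions. That is a breadth of 745 bp in *jhd2∆* and 495 bp in WT, with an upstream shift of 242 bp and a downstream shift of 8 bp. Nearly all of the extra breadth thus lay on the promoter side. Its height was a pileup of 219 in *jhd2∆* and 221 in WT. Pileup is the coverage at the summit; since the libraries were scaled by steps that are not fully described, it is best read as a rank within each list. On that scale *AFB1* stood at the 2.91 percentile in *jhd2∆* and the 2.61 percentile in WT, among the lowest peaks of each list.

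YPL197C on chromosome XVI had no match in the RefSeq table. Its peak was 506 bp in *jhd2∆* and 245 bp in WT, with shifts of 230 bp upstream and 31 bp downstream. At *AYT1*, which encodes an acetyltransferase, the peak was 698 bp broad in *jhd2∆* and 478 bp in WT, and its upstream edge lay 197 bp further out. Both peaks covered their whole WT stretch and were longer mostly on the upstream side. *HSP30*, a stress-induced protein of the plasma membrane, had a peak of 666 bp in *jhd2∆* and 517 bp in WT; its upstream shift was 159 bp and its downstream shift -10 bp. *ADH7*, an alcohol dehydrogenase, had a peak of 647 bp in *jhd2∆* and 469 bp in WT, with shifts of 156 bp upstream and 22 bp downstream. YLR031W had a peak of 591 bp in *jhd2∆* and 406 bp in WT, with shifts of 153 bp upstream and 32 bp downstream. *HSP30* was the only one of these 3 whose downstream edge stood nearer to the upstream edge in *jhd2∆*. *SFG1*, a transcription factor of pseudohyphal growth, differed in that both edges lay well outward: its peak was 876 bp in *jhd2∆* and 624 bp in WT, with shifts of 152 bp upstream and 100 bp downstream. All 7 of these peaks were low, with WT pileups between 173 at YLR031W and 258 at *AYT1*, against a median of 302 over all genes. The part of low pileup in these shifts was not tested.

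**Figure D2:**
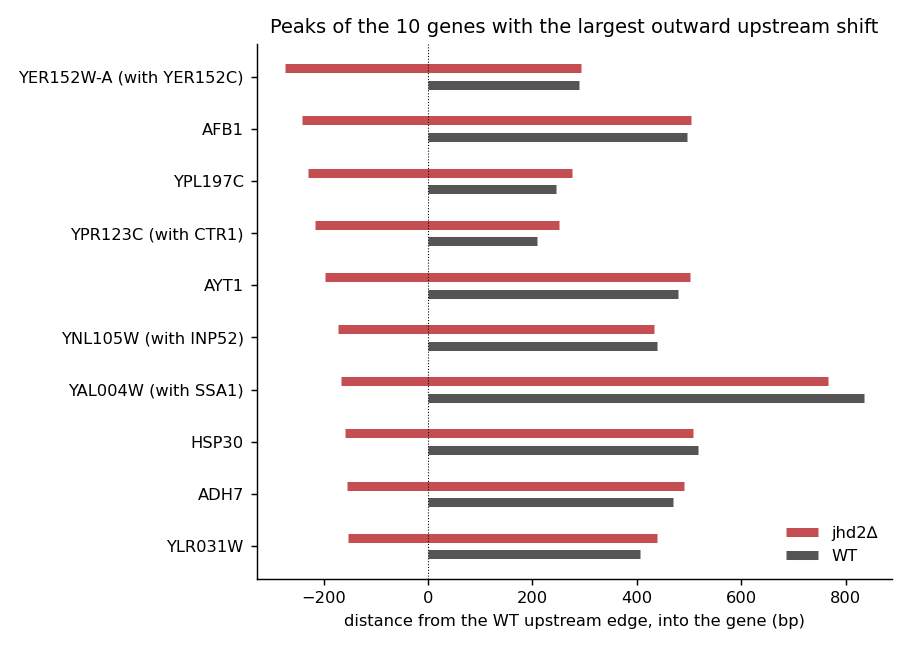
H3K4me3 peaks of the 10 genes with the largest outward upstream shift, drawn from their upstream edge in WT (0 bp) into the gene, with the *jhd2∆* peak above the WT peak. Every *jhd2∆* peak begins left of 0, by 273 bp at YER152W-A down to 153 bp at YLR031W, while the right-hand ends of the *jhd2∆* and WT peaks differ by 69 bp at most.

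Several further genes with a peak of their own are given here because of their values, outside the rule for named genes. *CTR3*, a copper transporter of the plasma membrane, had a peak of 922 bp in *jhd2∆* and 773 bp in WT and an upstream shift of 129 bp. *IZH2*, a membrane protein of zinc homeostasis, had a peak of 835 bp in *jhd2∆* and 625 bp in WT, with shifts of 121 bp upstream and 89 bp downstream. *ARR2*, an arsenate reductase, had a peak of 365 bp in *jhd2∆* and 238 bp in WT; its downstream edge was at the same base in both lists and its upstream edge 127 bp apart. At *ARR2* the listed edges thus differed on the promoter side alone. Its peak was among the lowest, at the 1.29 percentile of pileup in *jhd2∆* and the 1.84 percentile in WT. Its divergent neighbour *ARR3* had a peak in the *jhd2∆* list only, and the gap to the next listed peak was 605 bp in *jhd2∆* and 3404 bp in WT. *JLP1*, a sulfonate dioxygenase used for sulfur supply, had an upstream shift of 102 bp on a low peak, at the 2.98 percentile of WT pileup. *ICL2*, a 2-methylisocitrate lyase of mitochondria, had an unusually broad peak of 1438 bp in *jhd2∆* and 1364 bp in WT, with an upstream shift of 81 bp and a downstream shift of -7 bp. *HEM4*, an enzyme of heme synthesis, gained on both sides alike, 83 bp upstream and 81 bp downstream.

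The 76 genes that share a peak across strands need to be read with their partner, since the upstream edge of one gene is then the downstream edge of the other. In 74 of these genes the partner also had 1 peak in each list, and the shift at the common edge was equal in all 74 by construction. Both genes were among the 361 in 8 pairs. In 59 pairs the partner was an annotated gene of the RefSeq table while the listed member had no entry there, and in 59 pairs the partner was the longer gene. Median gene length was 429.5 bp for these members and 1196 bp for their partners. The partners' own upstream edge had a median shift of -5 bp. At most of these pairs the same difference is thus an extension at the downstream edge when read for the partner, an annotated gene. In all, 67 of the 361 genes (18.6%) had no match in the RefSeq table, against 117 of 4508 (2.60%), and 60 of the 67 were on shared peaks.

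The largest upstream shift of all, 273 bp, belonged to such a pair. The peak assigned to YER152W-A and YER152C on chromosome V ran from 473456 to 474021 in *jhd2∆* and from 473729 to 474018 in WT, a breadth of 566 bp in *jhd2∆* and 290 bp in WT. Read for YER152C, the same peak had its upstream edge 3 bp and its downstream edge 273 bp further out in *jhd2∆*. YPR123C shared its peak with *CTR1*, a high-affinity copper transporter, and here the peak was 467 bp in *jhd2∆* and 208 bp in WT. For *CTR1* the upstream shift was 43 bp and the downstream shift 216 bp, which left *CTR1* itself outside the rule. YNL105W shared a peak of 605 bp in *jhd2∆* and 439 bp in WT with *INP52*, a phosphoinositide phosphatase, for which the shift of 173 bp was downstream.

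YAL004W lay opposite *SSA1*, which encodes a cytosolic Hsp70 chaperone. The common peak was 932 bp in *jhd2∆* and 834 bp in WT. It lay 167 bp further out at the downstream edge of *SSA1* and 69 bp further in at its upstream edge, so that the peak as a whole stood further into *SSA1* in *jhd2∆*. The same arrangement, with a shift of -5 bp or lower at the upstream edge of the annotated partner, was found at *TRM5* (136 bp at the common edge with YHR069C-A), a tRNA methyltransferase, and at *BUD23* (122 bp with YCR047W-A), an rRNA methyltransferase. It was also found at *RPC53* (121 bp with YDL151C), a subunit of RNA polymerase III, and *ARE1* (116 bp with YCR049C), a sterol acyltransferase. *NOP13*, a nucleolar protein, had it with YNL174W (112 bp), and *COQ2* of coenzyme Q synthesis had it with YNR042W (95 bp). *REV1*, a translesion polymerase, had it with YOR345C (96 bp), and *SPC110*, a spindle pole body component, had it with YDR355C (72 bp). *SYO1*, a chaperone of ribosomal proteins, differed in that its own upstream edge lay 8 bp outward, with 128 bp at the edge shared with YDL062W.

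Further pairs with a shift above 50 bp at the common edge were *EAF1* with YDR360W (75 bp), *FRT1* with YOR325W (74 bp), *REX4* with YOL079W (84 bp), *PBP2* with YBR232C (79 bp), *RRP9* with YPR136C (63 bp), *VRP1* with YLR338W (53 bp), *SGE1* with YPR197C (52 bp), *NCS2* with YNL120C (51 bp) and YIL067C with YIL066W-A (53 bp). In 6 other pairs above 50 bp both partners were among the 361 genes, because both edges of the common peak lay outward. *POL30*, the sliding clamp PCNA, and YBR089W shared a peak of 681 bp in *jhd2∆* and 576 bp in WT, extended by 27 bp on the upstream side of *POL30* and by 78 bp on that of YBR089W. *JJJ1*, a co-chaperone of ribosome synthesis, and YNL226W had shifts of 14 and 136 bp on a peak of 449 bp in *jhd2∆* and 299 bp in WT. *IRC7* and YFR056C had 35 and 73 bp, and *DAL80*, a repressor of nitrogen catabolism genes, and YKR033C had 27 and 57 bp. *ATS1* and YAL019W-A had 12 and 69 bp, and *MTO1*, which modifies mitochondrial tRNA, and YGL235W had 24 and 55 bp.

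The 52 genes that share a peak on the same strand lay on 28 peaks, and these were among the broadest of the lists. Their peak breadth had a median of 1446.5 bp in *jhd2∆* (205 to 1621 bp) and 1382 bp in WT (214 to 1520 bp) over the 28 peaks, roughly the span of 1 short ORF of the pair. Most are pairs of a short and a long ORF beginning at the same place, and 45 of the 52 had 1 of 4 gene lengths: 1322 bp (18 genes), 5268 bp (15), 5313 bp (8) and 1316 bp (4). Lengths that recur this often can mark repeated elements, which the lists do not annotate. If they are near-identical copies, reads cannot be placed with certainty and the value of a single copy is uncertain; the sequences were not examined.

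At YBL100W-A and YBL100W-B on chromosome II the common peak ran from 30091 to 31514 in *jhd2∆* and from 30218 to 31502 in WT. The upstream shift was 127 bp and the downstream shift 12 bp, with a pileup of 233 in *jhd2∆* and 238 in WT. YCL019W and YCL020W had shifts of 92 bp upstream and -50 bp downstream on a peak of 1453 bp in *jhd2∆* and 1411 bp in WT. YMR050C and YMR051C gained most on the downstream side, 134 bp against 36 bp upstream, on a peak of 1505 bp in *jhd2∆* and 1335 bp in WT. Over all 49 peaks of genes with these 4 lengths the median upstream shift was 15 bp, against -13 bp for genes in general. Of the 49 peaks, 26 belonged to the 361 genes. The 49 also include genes outside such pairs that match in length only. Examples are *LYS21* (-21 bp), *GPD2* (-10 bp), *MTF2* (-7 bp) and *UTP6* (-4 bp), which were not among the 361 genes. The rank by height also differed between the lists: the 52 genes had a median pileup percentile of 91.8 in *jhd2∆* and 61.8 in WT. All 86 genes that share a peak on the same strand, members or not, had 89.3 in *jhd2∆* and 61.0 in WT. Genes on the same peak enter these medians more than once.

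**Figure D3:**
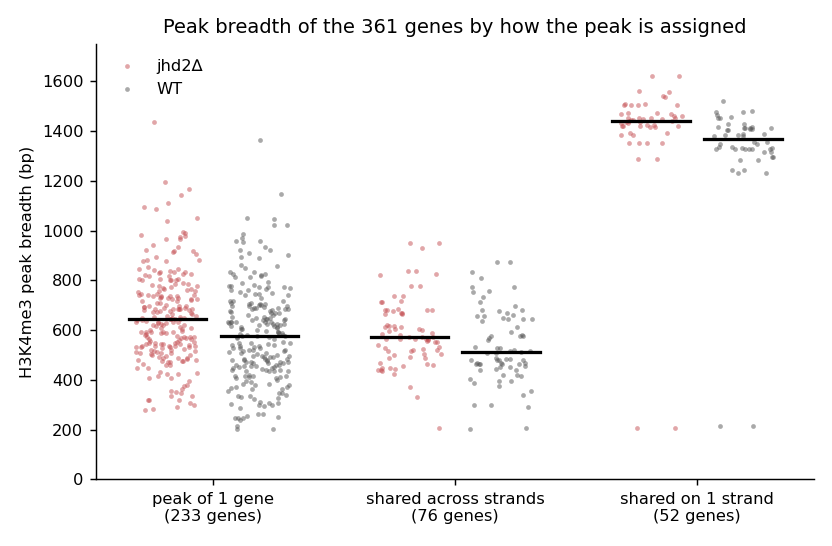
H3K4me3 peak breadth (bp) of the 361 genes in *jhd2∆* (left of each pair) and WT (right), split by how the peak was assigned, with 1 point per gene and a bar at the median. Genes sharing a peak on 1 strand stand near 1442 bp in *jhd2∆* and 1369 bp in WT, far above genes with a peak of their own (645 bp in *jhd2∆* and 578 bp in WT) and genes sharing a peak across strands (571 bp in *jhd2∆* and 510.5 bp in WT).

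The 361 genes tended to have low peaks in WT. Without the ORFs of 4 repeated lengths their WT peaks were also narrow, with a median of 561 bp against 658 bp over all genes. Over all 361 genes the median WT pileup was 277, at the 21.5 percentile of all genes, and 274 without those ORFs. The median *jhd2∆* pileup of the 361 genes was 258, at the 26.7 percentile. When all genes were split into 5 bins of about equal size by WT pileup, the lowest 20% held 175 of the 361 genes (48.5%). In that bin 19.1% of genes met the rule, against 6.57%, 6.03%, 4.99% and 3.16% in the bins above it. Members with a peak of their own made up 13.9% of the genes in the lowest bin and 1.47% in the highest. Pileup thus moved with membership, and its part in the shifts was not tested.

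The share that met the rule also depended on WT breadth. It was 25.9% of genes with a WT peak of 200 to 299 bp, 14.8% at 300 to 399 bp and 3.66% at 800 to 999 bp. It was 19.3% at 1000 bp and over, where genes sharing a peak supplied nearly all members: those with a peak of their own made up 2.07% of genes in that range. A WT edge that lies too far in by error would narrow the WT peak and enlarge the shift at once, so breadth in WT is not independent of the rule. The members' genes were somewhat short, with a median length of 1091 bp against 1250 bp over all genes.

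**Figure D4:**
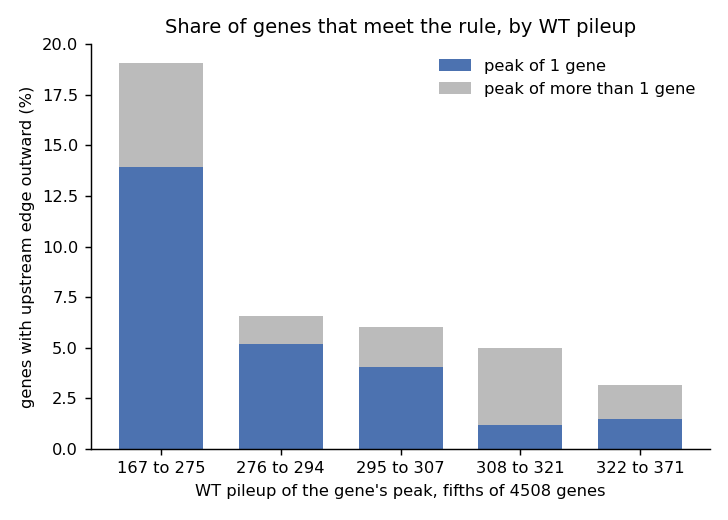
Percent of genes that met the rule (vertical) in 5 bins of about equal size of the 4508 genes by WT pileup, a coverage height (horizontal), with genes whose peak was theirs alone in blue and genes sharing a peak in grey. The bar of the lowest bin reaches 19.1% and that of the highest bin 3.16%.

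The highest 20% of genes by WT pileup held 28 of the 361 genes, with a median upstream shift of 16.5 bp and a range of 10 to 72 bp, and 4 of the 28 exceeded the members' median of 23 bp. The highest WT pileup belonged to *TSA1*, a peroxiredoxin and abundant antioxidant enzyme, with 299 in *jhd2∆* and 342 in WT. Its upstream edge lay 10 bp outward and its downstream edge 44 bp inward, so that its peak was 666 bp in *jhd2∆* and 700 bp in WT. *NCE103*, the carbonic anhydrase, had a pileup of 290 in *jhd2∆* and 334 in WT, with shifts of 16 bp upstream and -37 bp downstream. *REH1*, a factor of the large ribosomal subunit, had 11 and -44 bp, and YMR181C had 16 and -14 bp. At these 4 genes both edges lay further upstream in *jhd2∆*; YMR181C was 821 bp in *jhd2∆* and 819 bp in WT. YDR355C, which shares its peak with *SPC110*, had the largest shift of the 28, 72 bp at a WT pileup of 336. The largest losses of breadth were at YBR056C-B, with shifts of 19 and -102 bp, and at *SFI1*, a spindle pole body protein, with 11 and -75 bp. YNR005C had 20 and -49 bp.

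The stretch gained upstream touched another listed WT peak at 0 of the 361 genes, and likewise at 0 of all 4508 genes. The distance from the upstream edge to the next listed peak had a median of 1027 bp in *jhd2∆* and 1157 bp in WT for these genes, against 757 bp in *jhd2∆* and 807 bp in WT over all genes. Among genes with a peak of their own, members had 749.5 bp in *jhd2∆* and 928 bp in WT. All genes of that kind had 738 bp in *jhd2∆* and 781 bp in WT. The upstream neighbour in the RefSeq order was divergent, that is, transcribed away from the same intergenic region, at 128 of 293 members with a known neighbour (43.7%) and at 48.1% of all genes. The direction of this difference depended on the source of the neighbour: taken by name order, 57.2% of members and 49.6% of all genes had a divergent one. Among genes with a peak of their own, name order gave 47.7% of members and 47.8% of all such genes. RefSeq order gave 45.8% and 48.2% there. Of the 103 members with a peak of their own and a divergent neighbour, 75 neighbours had 1 peak in each list. The neighbour's own upstream edge had a median shift of -10 bp, against -14 bp over all genes so placed. It was outward by at least 10 bp at 10 of the 75 (13.3%), against 6.83% over all, and these 10 are 5 pairs counted from both sides.

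Those 5 intergenic regions had H3K4me3 reaching further in from both sides. *UBX7* and *CHK1*, a checkpoint kinase, had shifts of 14 and 16 bp, and the gap between their peaks was 70 bp in *jhd2∆* and 100 bp in WT. YLR361C-A and *STE11*, a MAP kinase kinase kinase, had shifts of 42 and 11 bp around a gap of 83 bp in *jhd2∆* and 136 bp in WT. *REC114*, required for meiotic DNA breaks, and *JLP2* had shifts of 92 and 10 bp around a gap of 983 bp in *jhd2∆* and 1085 bp in WT. The other two regions lay between *NRG1*, a repressor of glucose-repressed genes, and *HEM13* of heme synthesis (10 and 29 bp), and between YMR265C and *RSN1* (14 and 17 bp). On the Watson strand lay 182 of 361 members (50.4%), against 50.3% of all genes. By chromosome, members made up between 4.46% of genes on chromosome VIII and 11.1% on chromosome XII.

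Genes of central metabolism and protein synthesis were rare among the 361 genes. Over the 16 gene lists drawn up for the study's theme, 6 of 482 genes (1.24%) met the rule, against 355 of 4026 genes on no list (8.82%). None did in glycolysis (0 of 21), the TCA and glyoxylate cycles (0 of 21), oxidative phosphorylation (0 of 30), hexose transport (0 of 5) or galactose and sucrose use (0 of 4). None did among genes for H3K4 methylation (0 of 8), histones (0 of 9), the proteasome (0 of 31), chaperones (0 of 19), tRNA synthetases (0 of 18), mitochondrial import (0 of 21) or general transcription (0 of 26). The median upstream shift was -26 bp for glycolysis, -22 bp for oxidative phosphorylation and -19 bp for cytosolic ribosomal proteins, against -13 bp for all genes. It was -5.5 bp for H3K4 methylation and -9.5 bp for cyclins and their kinases. The glycolysis peaks were high, with a median WT pileup percentile of 89.7. Lower lists differed among themselves: the 5 hexose transporter genes, at a percentile of 6.87, had a median shift of -20 bp, and the 4 galactose and sucrose genes, at 26.5, had -0.5 bp. In the lowest 20% by WT pileup 1 of 26 listed genes met the rule (3.85%), against 174 of 892 genes on no list (19.5%). Peak sharing was not held equal in these counts. All 6 listed members had a peak of their own, and 5.57% of all genes with such a peak met the rule. The genes on no list include the members on shared peaks, where the share was 32.1% across strands and 60.5% on the same strand.

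The 6 listed genes that met the rule included 3 of 14 genes for cyclins and their kinases (21.4%), against 8.01% of all genes. At 7 of the 14 the upstream edge lay at least 10 bp inward. *PCL9*, *PCL1* and *PCL7* all encode cyclins of the Pho85 kinase. *PCL9* had a peak of 1109 bp in *jhd2∆* and 1047 bp in WT, with shifts of 117 bp upstream and -55 bp downstream. *PCL1* had 735 bp in *jhd2∆* and 662 bp in WT, with 40 and 33 bp, and *PCL7* 775 bp in *jhd2∆* and 703 bp in WT, with 13 and 59 bp. All 3 peaks were wider in *jhd2∆*, and *PCL9* alone had its downstream edge nearer to the upstream edge. The others were *MET16* of sulfate assimilation, with an upstream shift of 11 bp, and 2 ribosomal protein genes. *RPL21B* (1 of 133 cytosolic ribosomal protein genes, 0.752%) had 17 bp. *RSM23* (1 of 57 mitochondrial ribosomal protein genes, 1.75%) had 11 bp.

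Genes for DNA replication and repair, chromosome segregation and meiosis were noticed among the members and counted afterwards, in 3 lists made after the values were seen. Of 98 genes for replication and repair 20 met the rule (20.4%), against 8.01% of all genes. *CDC13*, which caps telomeres, had a peak of 554 bp in *jhd2∆* and 458 bp in WT, with shifts of 46 bp upstream and 50 bp downstream. *RAD53*, a checkpoint kinase, had a peak of 476 bp in *jhd2∆* and 349 bp in WT, with 34 and 93 bp. *MSH6* of mismatch repair had 646 bp in *jhd2∆* and 519 bp in WT, with 26 and 101 bp. The downstream shift exceeded the upstream one at all 3. The members *DNL4*, *TOP3*, *RAD54*, *POL12*, *OGG1*, *DUN1*, *TOF1* and *PMS1* had upstream shifts of 12 to 20 bp. The list's median upstream shift was -8.5 bp, and 34 of its 98 genes had any outward shift. Its peaks were low, with a median WT pileup percentile of 18.3, and 16 of its 20 members were in the lowest 20% by WT pileup, where 30.8% of its genes met the rule against 19.1% of all genes. Outside that bin 4 of 46 did (8.70%), against 5.18% of all genes. The part of pileup in this count was not tested.

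Of 53 genes for cohesion and segregation 8 met the rule (15.1%), against 8.01% of all genes. In the lowest 20% by WT pileup 26.7% of them did, against 19.1% of all genes, and outside it 10.5%, against 5.18% of all genes. *MCD1*, the kleisin subunit of cohesin, had a peak of 652 bp in *jhd2∆* and 472 bp in WT, with shifts of 39 bp upstream and 141 bp downstream. *SMC2* of condensin had 34 and -16 bp, *MIF2* of the kinetochore 27 and 23 bp and *PDS5* of cohesin 24 and 45 bp. Of 44 meiosis genes only 8 had 1 peak in each list, and 4 of these met the rule, against 8.01% of all genes. The rule was met by 2 of 4 in the lowest 20% by WT pileup, against 19.1% of all genes. Outside it 2 of 4 met it, against 5.18% of all genes. With 8 genes on a list made after the values were seen, these shares are a description only. *DMC1*, the meiotic recombinase, had a peak of 488 bp in *jhd2∆* and 457 bp in WT; its upstream edge lay 110 bp further out and its downstream edge 79 bp further in. *REC114* had 517 bp in *jhd2∆* and 385 bp in WT, with 92 and 40 bp, *SLZ1* had 49 and -25 bp and *REC102* had 22 and -31 bp. At 3 of the 4 genes both edges thus lay further upstream in *jhd2∆*; the peaks of *DMC1* and *SLZ1* were nevertheless wider, by 31 and 24 bp, and that of *REC102* was not.

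**Figure D5:**
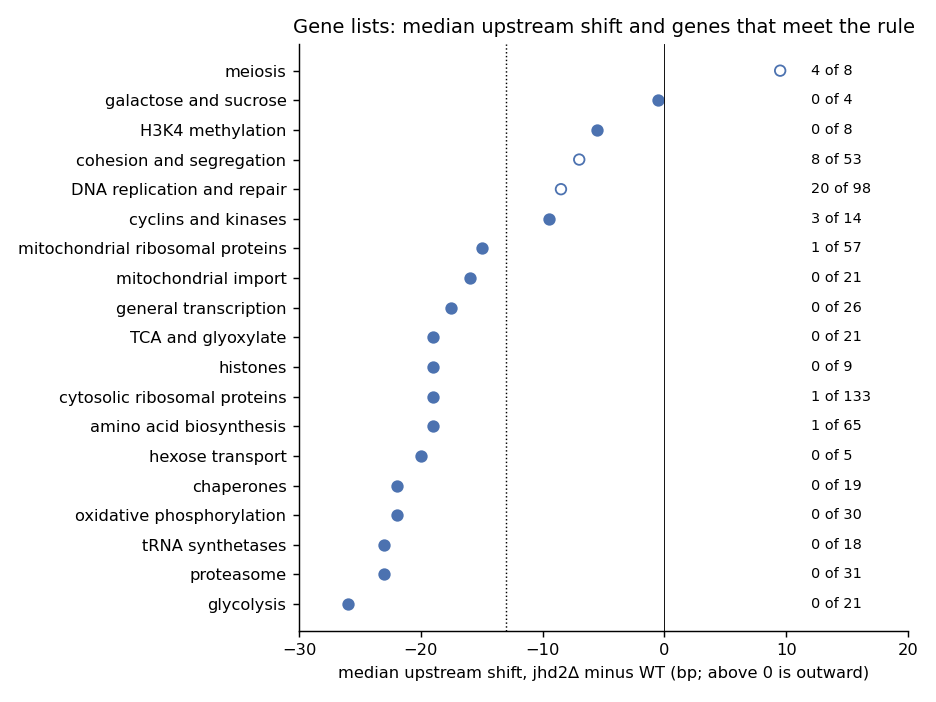
Median upstream shift (bp, *jhd2∆* minus WT, outward positive) of each gene list, with the number of genes that met the rule of the number measured; the dotted line is the median of all genes, -13 bp. Filled points are the 16 lists of the study's theme and open points the 3 lists made after the values were seen; meiosis is the only list with a median above 0, at 9.5 bp from 8 genes.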

How the data were processed

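H3K4me3 ChIP-seq of *jhd2∆* and WT cells was used, with 1 library per genotype (antibody against H3K4me3); the pan-H3 and lysate libraries were not analysed here. Reads were aligned with Bowtie2 2.2.3, per the submitters' processing notes, and the authors called peaks with MACS2 and assigned them to genes. The genome build is not given in the sources used here. For each peak the authors deposited its first and last base, its breadth and its pileup, a coverage signal. They describe equalizing the total H3K4me3 signal between genotypes, without the steps. The paper proposes that the greater breadth may reflect a genome-wide gain, visible only at some edges because spike-in controls were lacking. By ChIP-qPCR it reports higher H3K4me3 in *jhd2∆* at *MRPL17*, *PMA1* and *YEF3*, genes without a breadth difference. Read totals per list are not held, so no read-based interval is given.

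Edges were compared per gene with Python 3.11.15, numpy 2.4.6, pandas 2.3.3 and matplotlib 3.10.9, and tested on simulated lists with known shifts. Strand came from the systematic name. Names and neighbours came from RefSeq assembly R64 (4391 of 4508 matched), with no coordinates; promoter sequences were not analysed here. Members and lists were chosen with earlier results of these data known. Named genes were the 10 largest upstream shifts, 5 highest WT pileups, 5 largest losses and gains of breadth, pairs across strands above 50 bp, and listed metabolic and chromatin genes; others were picked once values had been seen. The alternatives covered the limits, the peak choice, shared and low peaks and the neighbour's source.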

Additional observations from a re-analysis of the deposited data

How the results depend on the processing

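Of 101 alternative values, 74 stayed within the range set for each result (chromosome-to-chromosome spread for medians, binomial interval for shares, 1.5 times for counts) and 27 left it. The 361 genes became 213 with a limit of 20 bp, 145 with 30 bp, 186 without the lowest 20% by WT pileup, 233 with peaks of 1 gene only and 1018 when shifts were counted from the median of all genes. The last setting gave a median upstream shift of 5 bp, a breadth difference of 38.5 bp and a WT pileup of 291, with 84.1% wider and 18.96% on shared peaks. Limits of 20 and 30 bp gave median upstream shifts of 38 and 46 bp, 95.3% and 98.6% wider, 46.5% and 48.3% on shared peaks and 35.7% and 33.3% with a divergent neighbour; the 30 bp limit gave a breadth difference of 82 bp. Listed genes numbered 2 at 20 bp and 14 at 5 bp, where 28.8% were on shared peaks. Without the lowest 20% by pileup, WT breadth was 688 bp, WT pileup 304 and the shared share 43.5%. Taking the neighbour by name order gave 57.2% divergent, against 49.6% of all genes, which turns the direction. Leaving out the ORFs of 4 repeated lengths, chosen after seeing the data, gave 26.3% on shared peaks. Where the alternative changes the rule itself, the difference follows from its construction; for the others the cause was not tested. No paired analysis was possible because H3K4me3 was sequenced in 1 library per genotype. The promoter motif search was not run, as no promoter sequences were at hand. Depth, enrichment and genotype cannot be told apart with 1 library each.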

Other observations

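The 56 genes left out by the downstream limit also had their upstream edge at least 10 bp outward, with the same median upstream shift of 23 bp. Their downstream shift had a median of 229 bp and their peaks a median of 765.5 bp in *jhd2∆* and 446 bp in WT. They were lower still than the 361 genes, with a median WT pileup at the 3.64 percentile, and 44 of the 56 were in the lowest 20%. The G1 cyclin genes *CLN1* and *CLN2* were among them, with shifts of 45 bp upstream and 173 bp downstream at *CLN1* and 42 and 244 bp at *CLN2*. *CIT2*, the peroxisomal citrate synthase, had 22 and 321 bp. *SCW10*, a cell wall protein, had the largest upstream shift of these genes, 137 bp, with 191 bp downstream. *QDR1*, a multidrug transporter, had 93 and 770 bp. These genes were named after their values were seen.

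Copies of the subtelomeric helicase gene *YRF1* stood on both sides of that limit. *YRF1-4* was among the 361 genes, with shifts of 95 bp upstream and 48 bp downstream. *YRF1-6*, *YRF1-7* and *YRF1-3* were left out, with 40 and 398 bp, 13 and 409 bp, and 41 and 422 bp. This gene is known as a multicopy family, and whether its copies share reads here was not tested, so the value of each copy is uncertain.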
